A study of Danio rerio with 16 samples.

Results

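The 10 genes described here belong to the unfolded protein response, the programme by which a cell answers an excess of unfolded proteins in its endoplasmic reticulum (ER). They are hspa5, hsp90b1, eif2ak3, atf6, xbp1, atf4b1, atf4b2, ddit3, chac1 and nupr1, taken by their symbols from count tables of 31452 zebrafish genes. All 10 were found, and all were among the 21650 genes that passed the filter on low counts. Gene-level RNA was measured in whole zebrafish embryos of the ABTL background, 4 days post fertilization (dpf). A volume of 1 nl, either human recombinant insulin or PBS as the control, had been injected into the caudal aorta, and RNA was taken 0.5 or 4 hours post injection (hpi). The 4 groups were PBS and insulin at 0.5 hpi and PBS and insulin at 4 hpi, with 4 libraries each, and every library was a pool of 10 embryos. The control embryos were injected as well, so the comparisons of treatments are between injected embryos. How much insulin the injected volume held is not stated in the labels.

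The unfolded protein response starts at sensors in the ER membrane. PERK (the product of eif2ak3) phosphorylates the translation factor eIF2α, which slows translation in general while the transcription factor ATF4 is made; ATF6 is cut in the Golgi to release a transcription factor; and IRE1 splices the mRNA of xbp1 into the form that encodes an active factor. These factors induce ER chaperones such as BiP (hspa5), and the PERK branch also induces CHOP (ddit3) and genes such as chac1 and nupr1. In mammals, ATF4 is shared with other kinases that sense amino acid shortage or haem deficiency, and secretory cells such as those of the exocrine pancreas and liver are rich in ER. A gene count shows neither the splicing of xbp1 nor the phosphorylation or cleavage of the sensors.

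In the current RefSeq nomenclature atf4b1 is atf4a, atf4b2 is atf4b, and nupr1 is nupr1b. In the tables the 10 genes lie on chromosomes 3 (atf4b2, nupr1), 4 (hsp90b1), 5 (hspa5, xbp1), 6 (atf4b1, ddit3), 13 (eif2ak3) and 20 (atf6, chac1).

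Library totals lay between 6535173 and 9628705 counts, and no member had fewer than 168 counts in any library. Levels are given as CPM, the counts of a gene per unit of scaled library size, so they compare a gene with itself and not with another gene. Of the 16 libraries, 4 stood apart: wdr90 and si:dkey-15h8.1 were each under 10 CPM in them. At 0.5 hpi these were replicate 1 of PBS together with replicates 1 and 2 of insulin, and at 4 hpi replicate 1 of insulin. Their summed erythroid markers also lay higher, at 5703 to 7997 CPM against 2222 to 3610 CPM in the other 12 libraries. Replicates 2 and 3 of PBS at 0.5 hpi were a near-identical pair by the count of genes: 80 of 21480 genes differed between them, against at least 727 in any other pair within a group. By mean chi-square over genes (2.79) it was not the closest pair. At 4 hpi that value was 2.46 for PBS replicates 3 and 4 and 2.56 for insulin replicates 2 and 3. Results are therefore also given for the 12 libraries (3 PBS and 2 insulin at 0.5 hpi, 4 PBS and 3 insulin at 4 hpi). Markers of exocrine pancreas, liver, blood, eye, cartilage and muscle were measured in the libraries, and those that passed the filter on low counts were used.

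**Figure D1:**
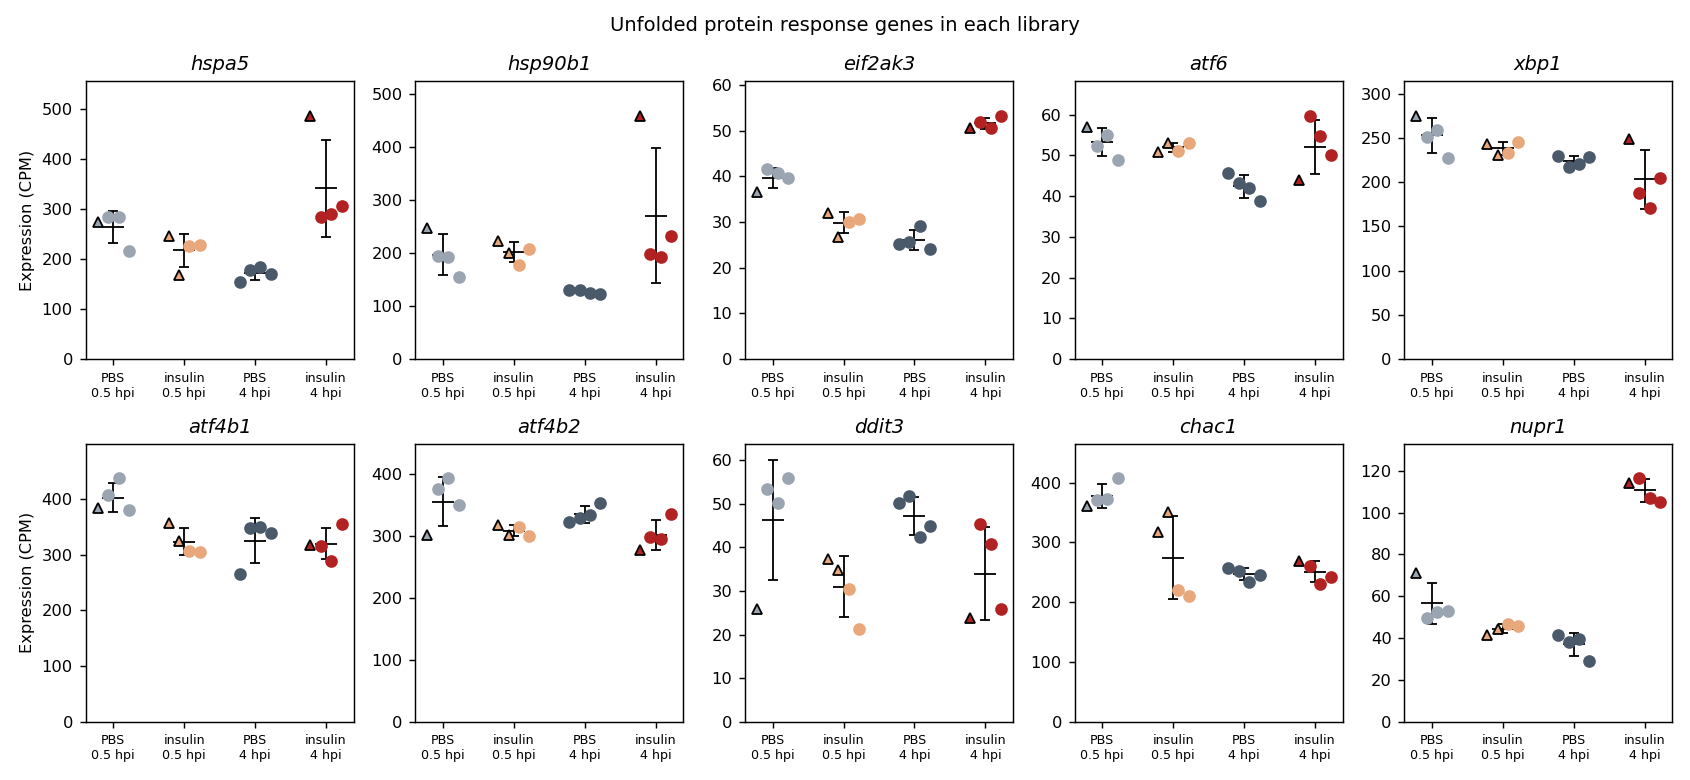
Level of each gene in CPM (vertical axes, from 0) in the 16 libraries, by treatment and time; points are libraries, triangles are the 4 libraries that stood apart, and bars are the mean ± SD of 4. At 4 hpi the insulin libraries lay above every PBS library for hspa5, hsp90b1, eif2ak3 and nupr1, while the transcription factor genes and chac1 overlapped. The share of all tested genes so separated was not computed.

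At 4 hpi, insulin-injected embryos held more mRNA of both ER chaperones, of the sensors eif2ak3 and atf6, and of nupr1 than PBS-injected embryos. The ratio of insulin to PBS was about 1.99-fold for hspa5, 2.14-fold for hsp90b1, 1.98-fold for eif2ak3 and 2.99-fold for nupr1, and 1.23-fold for atf6. The genes of the transcription factors xbp1, atf4b1, atf4b2 and ddit3, and chac1, did not pass the test. So 5 of the 10 genes were called higher and 0 lower by edgeR at an adjusted p under 0.05, where 14% of all tested genes were called higher and 14.6% lower. No member was lower at an unadjusted p under 0.05 either (0 of 10), and DESeq2 and limma voom each also called 5 higher and 0 lower. The median log2 change of the 10 genes was 0.16, against 0.01 over all tested genes. In RNA from whole embryos, a change in the number of cells of a type and a change in the RNA per cell cannot be told apart.

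The gene hspa5 encodes BiP, the Hsp70 chaperone of the ER that also holds the sensors inactive. At 4 hpi it stood at 154, 179, 184 and 170 CPM in the PBS libraries and at 487, 284, 291 and 307 CPM in the insulin libraries. The groups did not overlap, and insulin replicate 1, which stood apart from the other libraries, was far above the other insulin libraries. The change was 0.99 on the log2 scale (SE 0.16, 95% interval 0.66 to 1.32, adjusted p = 0.000158), and 0.78 (SE 0.093, adjusted p = 5.33e-07) over the 12 libraries.

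The gene hsp90b1 encodes GRP94, the Hsp90 chaperone of the ER. It was measured at 130, 129, 124 and 122 CPM in PBS at 4 hpi, the closest spread of that gene in any group. The insulin libraries held 458, 198, 192 and 233 CPM, all above PBS, with replicate 1 again far from the rest. The log2 change was 1.1 (SE 0.22, adjusted p = 0.00165) and 0.72 (SE 0.09, adjusted p = 1.12e-06) over the 12 libraries, so the size of the difference depended on insulin replicate 1. Across the 4 groups, hsp90b1 was also the member that differed between the 4 libraries that stood apart and the rest, by 0.56 on the log2 scale (adjusted p = 0.00358).

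Of the sensors, eif2ak3 moved most. PBS libraries at 4 hpi held 25.3, 25.6, 29.1 and 24.0 CPM, and insulin libraries held 50.6, 52.0, 50.6 and 53.3 CPM. The groups were well separated, with a coefficient of variation of 2.53% in insulin. It was higher in insulin by 0.99 on the log2 scale (SE 0.092, adjusted p = 4.7e-07) and by 1.00 over the 12 libraries.

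The second measured sensor, atf6, moved less. It stood at 45.6, 43.2, 41.9 and 38.8 CPM in PBS and at 44.0, 59.7, 54.6 and 50.1 CPM in insulin at 4 hpi. Insulin replicate 1 fell inside the PBS range and the other insulin libraries lay above it. On the log2 scale it was higher in insulin by 0.30 (SE 0.098, adjusted p = 0.0281). The call was lost when library totals replaced the TMM factors (adjusted p = 0.109), with no filter on low counts, and without any of 5 single libraries, PBS replicates 2, 3 or 4 or insulin replicates 2 or 3 (up to adjusted p = 0.109), while over the 12 libraries the change was 0.38 (adjusted p = 0.00132).

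The nupr1 gene, which encodes a small stress-induced nuclear protein, showed the largest change of the 10. PBS libraries at 4 hpi held 41.5, 38.1, 39.5 and 29.0 CPM, and insulin libraries held 114, 116, 107 and 105 CPM. The groups did not overlap. It was higher in insulin by 1.58 on the log2 scale (SE 0.12, adjusted p = 5.3e-08), ranked 13 by p among all tested genes, and by 1.57 over the 12 libraries. The other zebrafish copy, nupr1a (listed under an older clone name, and singled out here after its value was seen), had a log2 change of -0.13 (adjusted p = 0.483).

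For xbp1, the target of IRE1, PBS libraries at 4 hpi held 229, 217, 220 and 229 CPM and insulin libraries 249, 188, 171 and 204 CPM. Insulin replicate 1 was above the PBS range and the other insulin libraries were below it. Its log2 change was -0.14 (95% interval -0.36 to 0.08, adjusted p = 0.332). Over the 12 libraries xbp1 was called lower, with a change of -0.25 (adjusted p = 0.0194), the opposite direction to the chaperone genes.

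Both ATF4 genes overlapped between treatments at 4 hpi. For atf4b1, PBS libraries held 265, 349, 350 and 338 CPM and insulin libraries 318, 316, 289 and 356 CPM, a log2 change of -0.03 with a 95% interval of -0.25 to 0.20. For atf4b2, PBS libraries held 321, 329, 334 and 353 CPM and insulin libraries 277, 298, 294 and 334 CPM, a log2 change of -0.15 with an interval of -0.36 to 0.05. Neither gene passed the test (adjusted p = 0.877 for atf4b1 and 0.245 for atf4b2).

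The CHOP gene ddit3, a transcription factor that promotes cell death under lasting ER stress, was the least precise member. It stood at 50.1, 51.7, 42.3 and 45.0 CPM in PBS and at 23.7, 45.3, 40.8 and 26.0 CPM in insulin at 4 hpi. Insulin replicates 1 and 4 lay below every PBS library, replicate 3 lay just below them and replicate 2 within their range. Its log2 change was -0.47 (95% interval -0.98 to 0.04, adjusted p = 0.152).

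The gene chac1 encodes a glutathione-degrading enzyme and is a target of ATF4 and CHOP. It held 257, 253, 234 and 246 CPM in PBS and 269, 261, 230 and 242 CPM in insulin at 4 hpi, with overlap. Its log2 change was 0.02, with an interval of -0.26 to 0.30. Thus hspa5, hsp90b1, eif2ak3, atf6 and nupr1 were called higher at 4 hpi, and ddit3 and chac1 were not called.

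**Figure D2:**
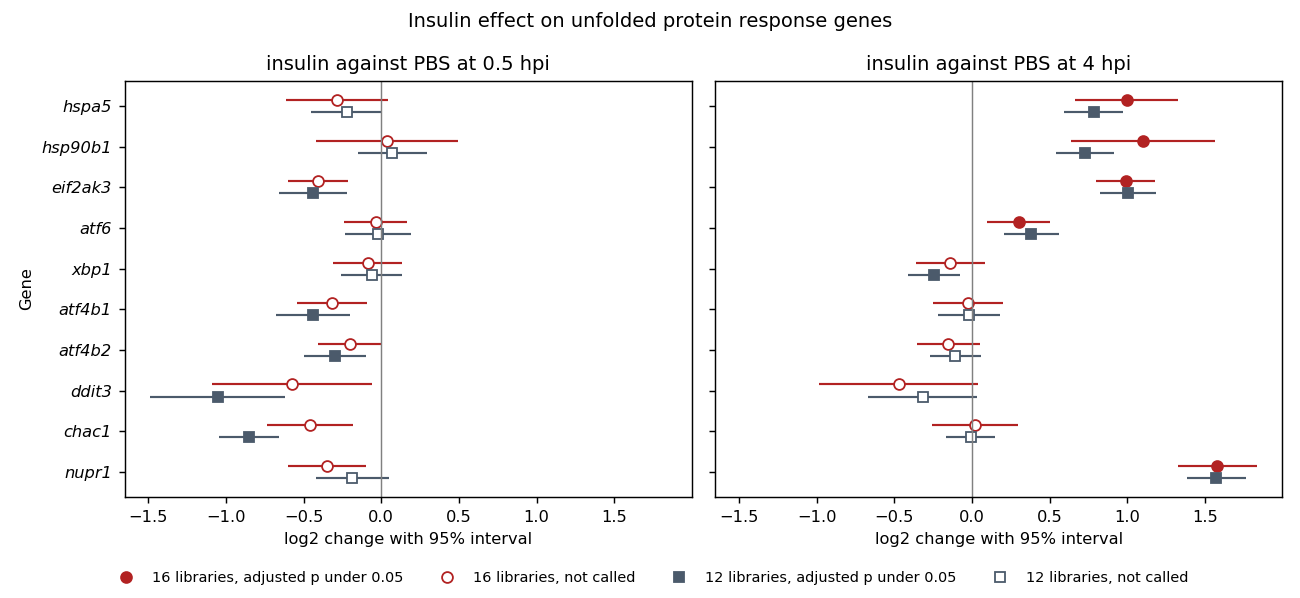
Log2 change of insulin against PBS (horizontal axes) with its 95% interval for each gene, at 0.5 hpi and at 4 hpi, from the fit of all 16 libraries (circles) and of the 12 libraries (squares); filled symbols passed an adjusted p under 0.05. At 4 hpi 5 genes are filled to the right in both fits, and at 0.5 hpi no circle is filled while 5 squares are filled to the left.

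At 0.5 hpi no member passed the test, and most had lower means in insulin. The median log2 change was -0.30, against 0.02 over all tested genes, and 9 of the 10 changes were negative. By edgeR 0 members were called higher and 0 lower, where 0.166% of all tested genes were called higher and 0.222% lower. At an unadjusted p under 0.05, 5 members were lower (eif2ak3, atf4b1, ddit3, chac1 and nupr1) and 0 higher, limma voom called 0, and DESeq2 called 3 lower (eif2ak3, atf4b1 and chac1). Over the 12 libraries 5 members were called lower and 0 higher, where 6.38% of genes were called higher and 6.54% lower. That comparison rested on 3 PBS and 2 insulin libraries, and with the near-identical PBS libraries summed as 1, an alternative chosen after seeing the data, 4 members were called lower.

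The sensor gene eif2ak3 came closest to the threshold in all 16 libraries. It stood at 36.5, 41.7, 40.8 and 39.6 CPM in PBS and at 32.1, 26.8, 30.0 and 30.7 CPM in insulin at 0.5 hpi. The groups did not overlap. The log2 change was -0.41 (SE 0.092, adjusted p = 0.0585) and -0.44 (adjusted p = 0.00654) over the 12 libraries.

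For chac1, PBS libraries at 0.5 hpi held 360, 371, 373 and 407 CPM and insulin libraries 317, 351, 221 and 210 CPM. All insulin libraries were below PBS, and the 2 that stood apart (replicates 1 and 2) were close to it. The log2 change was -0.46 (SE 0.13, adjusted p = 0.121) in 16 libraries and -0.85 (SE 0.094, adjusted p = 6.25e-07) in the 12.

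The values of ddit3 were split in the same way by library. PBS libraries at 0.5 hpi held 25.9, 53.4, 50.1 and 55.8 CPM, where the low value was the library that stood apart, and insulin libraries held 37.3, 34.8, 30.5 and 21.3 CPM. Apart from that PBS library, every insulin library was lower than PBS. The log2 change was -0.58 (adjusted p = 0.317) in 16 libraries and -1.05 (SE 0.20, adjusted p = 0.00373) in the 12.

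The ATF4 gene atf4b1 held 384, 408, 437 and 380 CPM in PBS and 357, 324, 307 and 305 CPM in insulin at 0.5 hpi, without overlap. Its log2 change was -0.32 (adjusted p = 0.186), and -0.44 (adjusted p = 0.0131) over the 12 libraries. Its paralogue atf4b2 held 302, 375, 392 and 350 CPM in PBS and 318, 301, 315 and 300 CPM in insulin, and PBS replicate 1, which stood apart, lay inside the insulin range. The log2 change of atf4b2 was -0.20 (adjusted p = 0.39), and -0.30 (adjusted p = 0.0395) over the 12 libraries.

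The chaperone genes and the other members were not called at 0.5 hpi in either set of libraries. For hspa5, PBS libraries held 275, 284, 284 and 217 CPM and insulin libraries 247, 169, 227 and 228 CPM, a log2 change of -0.28 (adjusted p = 0.466). For hsp90b1, PBS libraries held 247, 193, 192 and 154 CPM and insulin libraries 222, 200, 177 and 206 CPM, which overlapped fully. For nupr1, PBS libraries held 71.3, 49.4, 52.6 and 53.2 CPM and insulin libraries 41.5, 44.2, 46.6 and 45.6 CPM, which did not overlap, with a log2 change of -0.35 (adjusted p = 0.194). The genes atf6 (log2 change -0.04) and xbp1 (-0.09) overlapped between treatments.

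Whether the insulin effect differed between the times was tested as 1 contrast, the effect at 4 hpi minus the effect at 0.5 hpi. It was called for 4 of the 10 genes, all with a larger effect at 4 hpi, where 3.83% of all tested genes were called in that direction and 5.76% in the other. The difference was 1.28 (SE 0.22, adjusted p = 0.00138) for hspa5, 1.06 (SE 0.31, adjusted p = 0.0378) for hsp90b1, 1.39 (SE 0.13, adjusted p = 2.13e-06) for eif2ak3 and 1.93 (SE 0.17, adjusted p = 1.01e-06) for nupr1, on the log2 scale. The difference for hsp90b1 was 0.66 (adjusted p = 0.00271) over the 12 libraries and 0.70 (adjusted p = 0.0141) without insulin replicate 1 at 4 hpi alone. The call on hsp90b1 was lost with the near-identical pair summed, where its adjusted p was 0.0595, and without any of 10 single libraries (up to adjusted p = 0.0716), namely PBS replicates 1, 2 and 3 and insulin replicates 2, 3 and 4 at 0.5 hpi and all 4 PBS libraries at 4 hpi. For chac1 the difference was 0.48 (adjusted p = 0.114) and, over the 12 libraries, 0.84 (adjusted p = 3e-05). For atf6 it was 0.34 (adjusted p = 0.131) and, over the 12 libraries, 0.41 (adjusted p = 0.0461).

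The levels also moved between the PBS groups. From 0.5 to 4 hpi, 5 of the 10 genes fell in PBS-injected embryos and 0 rose, where 7.96% of all tested genes were called higher and 5.65% lower at 4 hpi. On the log2 scale hspa5 fell by 0.62 (adjusted p = 0.0122), eif2ak3 fell by 0.61 (adjusted p = 0.000311), chac1 fell by 0.61 (adjusted p = 0.00504), nupr1 fell by 0.61 (adjusted p = 0.00244) and atf6 fell by 0.33 (adjusted p = 0.0303). At an unadjusted p under 0.05, 7 were lower and 0 higher, and DESeq2 and limma voom each called 7 lower and 0 higher, adding hsp90b1 and atf4b1. The shares above are of edgeR's adjusted calls alone. The call on atf6 was lost with the near-identical pair summed, with library totals, with no filter, and without any of 6 single PBS libraries, replicates 1, 2 and 3 at 0.5 hpi and 2, 3 and 4 at 4 hpi (up to adjusted p = 0.112). The edgeR values of hsp90b1 (log2 change -0.64, adjusted p = 0.0613) and atf4b1 (-0.31, adjusted p = 0.0634) were just outside the threshold. The time since injection and the age of the embryo cannot be told apart in this comparison. No named lane held PBS libraries of both times, so lane cannot be told apart from time here either.

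Between the insulin groups, 3 genes rose from 0.5 to 4 hpi and 0 fell, where 1.17% of all tested genes were called higher and 1.75% lower. These were nupr1 (log2 change 1.31, adjusted p = 1.47e-06), eif2ak3 (0.79, adjusted p = 2.95e-05) and hspa5 (0.65, adjusted p = 0.027). Over the 12 libraries all 3 were still called, at 1.27, 0.79 and 0.39 (adjusted p = 0.0423 for hspa5). In those libraries xbp1 was called lower (-0.33, adjusted p = 0.0449). The share of all tested genes over the 12 libraries is not given for this comparison. Among the genes not called, hsp90b1 had a log2 change of 0.42 (adjusted p = 0.335) and atf6 of 0.006 (adjusted p = 0.984). At an unadjusted p under 0.05, 1 gene was lower (xbp1), and DESeq2 and limma voom also called 3 higher and 0 lower. The call on hspa5 was lost without insulin replicate 1 at 4 hpi (adjusted p = 0.0601) and without insulin replicate 2 at 0.5 hpi (adjusted p = 0.09), and when the fit held the libraries of those groups alone. The comparison of treatments at 4 hpi and the comparison of PBS over time share the 4 PBS libraries at 4 hpi, and the contrast of effects uses all 16 libraries, so these results are not independent of each other.

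Set in order of level, the groups took different places for different genes. For eif2ak3 the means were 26.0 ± 2.20 CPM in PBS at 4 hpi, 29.9 ± 2.24 in insulin at 0.5 hpi, 39.7 ± 2.26 in PBS at 0.5 hpi and 51.6 ± 1.31 in insulin at 4 hpi (SD, n = 4 each), and only the lowest pair of neighbours overlapped. The same order held for nupr1, at 37.0 ± 5.51, 44.5 ± 2.24, 56.6 ± 9.90 and 111 ± 5.60 CPM, again with overlap between the lowest pair alone. For hspa5 the order was also the same, at 172 ± 13.2, 218 ± 33.9, 265 ± 32.4 and 342 ± 97.1 CPM, but every pair of neighbours overlapped. Insulin at 4 hpi was thus above PBS at 0.5 hpi in every library for eif2ak3 and nupr1. For hspa5 these groups overlapped only barely. The lowest insulin library at 4 hpi (replicate 2) held 284.15 CPM, and the highest PBS library at 0.5 hpi (replicate 3) held 284.21 CPM.

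For chac1 the highest group was PBS at 0.5 hpi, at 378 ± 20.2 CPM, above every library of the other groups, which had means of 247 ± 9.66 (PBS at 4 hpi), 251 ± 17.7 (insulin at 4 hpi) and 275 ± 69.8 CPM (insulin at 0.5 hpi) and overlapped. The order of atf4b1 had the same highest group, at 402 ± 26.3 CPM, with the others between 320 ± 27.3 and 326 ± 40.4 CPM. For atf6 the lowest group was PBS at 4 hpi, at 42.4 ± 2.85 CPM, and the others lay between 51.9 ± 1.16 and 53.3 ± 3.47 CPM with overlap. For hsp90b1 PBS at 4 hpi was lowest too, at 126 ± 4.06 CPM, and did not overlap its neighbour. The coefficient of variation within a group ran from 2.24% (atf6 in insulin at 0.5 hpi) to 46.8% (hsp90b1 in insulin at 4 hpi).

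The wider pathway was read in 5 lists of other genes, 169 in the tables, of which 168 were tested. At 4 hpi 56 of the 168 were called higher in insulin and 13 lower, with a median log2 change of 0.27 against 0.01 over all tested genes. Of all tested genes 14% were called higher and 14.6% lower, the shares to set beside each list at 4 hpi below. From 0.5 to 4 hpi, 6 of the 168 were called higher and 12 lower in PBS (median -0.16), where 7.96% of all tested genes were called higher and 5.65% lower. In insulin 6 were called higher and 2 lower over that time (median 0.04), where 1.17% of all tested genes were called higher and 1.75% lower. These shares over time are also those to set beside each list below. At 4 hpi without insulin replicate 1, 37 of 169 were called higher in insulin and 15 lower, with a median of 0.20. List counts without that library, or with other tests or scaling, have no share of all tested genes beside them. A change in such a count is therefore not a result about the lists. Over the 12 libraries 66 were called higher and 19 lower, where 17.4% of all tested genes were called higher and 17.8% lower. These are counts, and the lists were written with earlier results of these data known.

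Of the ER chaperones and folding enzymes, 22 of 37 were called higher in insulin than in PBS at 4 hpi and 0 lower. The median log2 change was 0.53, and at an unadjusted p under 0.05, 28 were higher and 0 lower. With the smallest p were uggt1, the folding sensor that marks glycoproteins for another round of folding, from 15.3 ± 0.739 to 28.3 ± 3.77 CPM (log2 change 0.88, adjusted p = 6.49e-05), creld1 (listed as CABZ01112331.1; 0.93, adjusted p = 0.000421) and pdip5, the protein disulfide isomerase pdia6 (0.96, adjusted p = 0.000575). DESeq2 and limma voom called 24 and 23 of the list higher. Without insulin replicate 1 the count was 18. From 0.5 to 4 hpi, 0 of the list were called higher and 6 lower in PBS (median log2 change -0.32), beside 7.96% and 5.65% of all tested genes. In insulin 1 was called higher and 0 lower over that time (median 0.08), beside 1.17% and 1.75% of all tested genes. At 0.5 hpi uggt1 stood at 24.1 ± 4.28 CPM in PBS and 28.5 ± 0.689 CPM in insulin.

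Of the genes of translocation into the ER and signal peptide processing, 11 of 32 rose and 0 fell, with a median of 0.36; at an unadjusted p under 0.05, 22 were higher and 0 lower. The 3 with the smallest p were tram1, a helper of the translocon (log2 change 0.85, adjusted p = 0.000362), srp68, a subunit of the signal recognition particle (0.55, adjusted p = 0.00306), and ssr1, a subunit of the translocon-associated complex (0.49, adjusted p = 0.00567). Without insulin replicate 1 the count was 6, and over the 12 libraries it was 16. From 0.5 to 4 hpi, 0 of the list were called higher and 1 lower in PBS (median log2 change -0.25). In insulin 0 were called higher and 0 lower over that time (median -0.01).

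The genes of ER-associated degradation return misfolded proteins to the proteasome. Of these, 9 of 31 were called higher in insulin than in PBS at 4 hpi and 1 lower, with a median of 0.17. Those named by p were ngly1, the cytosolic enzyme that strips N-glycans (log2 change 0.89, adjusted p = 0.000134), os9, a lectin of the degradation complex (0.55, adjusted p = 0.000206), and edem2, a mannosidase-like protein (0.68, adjusted p = 0.00357). The gene called lower was vimp, a selenoprotein of the same membrane complex (lower by 0.27, adjusted p = 0.029). With library totals 5 of the list were called higher, and without insulin replicate 1 it was 4. From 0.5 to 4 hpi, 1 of the list was called higher and 3 lower in PBS (median log2 change -0.04). In insulin 1 was called higher and 0 lower from 0.5 to 4 hpi (median 0.08).

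In the list of the PERK and integrated stress response arm, 9 of 45 were called higher and 9 lower, with a median of 0.07. Of all tested genes 14% were called higher and 14.6% lower. Higher were stc2a, a secreted glycoprotein (log2 change 0.99, adjusted p = 4.61e-05), eif2s1a, which encodes eIF2α itself (0.62, adjusted p = 0.00109), and eif2ak1, the haem-regulated eIF2α kinase (0.82, adjusted p = 0.00119). Lower were atf3, a stress-induced transcription factor, from 98.1 ± 26.4 to 11.6 ± 1.13 CPM (fell by 3.08, adjusted p = 2.75e-05), slc7a3a, a cationic amino acid transporter (fell by 1.02, adjusted p = 1.41e-05), and bbc3, the pro-apoptotic PUMA (fell by 1.21, adjusted p = 4.16e-05). Chosen after their values were seen, ppp1r15a, the stress-induced phosphatase subunit that reverses eIF2α phosphorylation, fell by 1.29 (adjusted p = 0.00156) and trib3, an ATF4 and CHOP target, fell by 1.18 (adjusted p = 0.00015). The list also holds 10 aminoacyl-tRNA synthetase genes, likewise singled out after their values were seen. Of these, 4 (aars, gars, sars and iars) were higher in insulin than in PBS by 0.36 to 0.44 (largest adjusted p 0.0444). The other 6 were not called, with log2 changes from -0.02 (eprs) to 0.34 (yars). Without insulin replicate 1, 6 of the list were called higher and 10 lower.

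Of the IRE1 and ATF6 arms and related sensors, 5 of 23 rose and 3 fell, with a median of 0.15, beside 14% and 14.6% of all tested genes. Higher were yy1b (log2 change 0.66, adjusted p = 0.000164) and yy1a (0.34, adjusted p = 0.00843), whose mammalian counterpart is a partner of ATF6, and mbtps2 (0.40, adjusted p = 0.0235), the site-2 protease that cuts ATF6. Lower were nfybb, a subunit of NF-Y (fell by 0.62, adjusted p = 0.00147), traf2b (fell by 0.79, adjusted p = 0.00362), and CREB3L3 (2 of 2) (fell by 0.88, adjusted p = 0.0108). TRAF2 binds activated IRE1 in mammals, and CREB3L3 is an ER-bound factor of liver and gut. Without insulin replicate 1, 3 of the list were called higher and 3 lower.

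**Figure D3:**
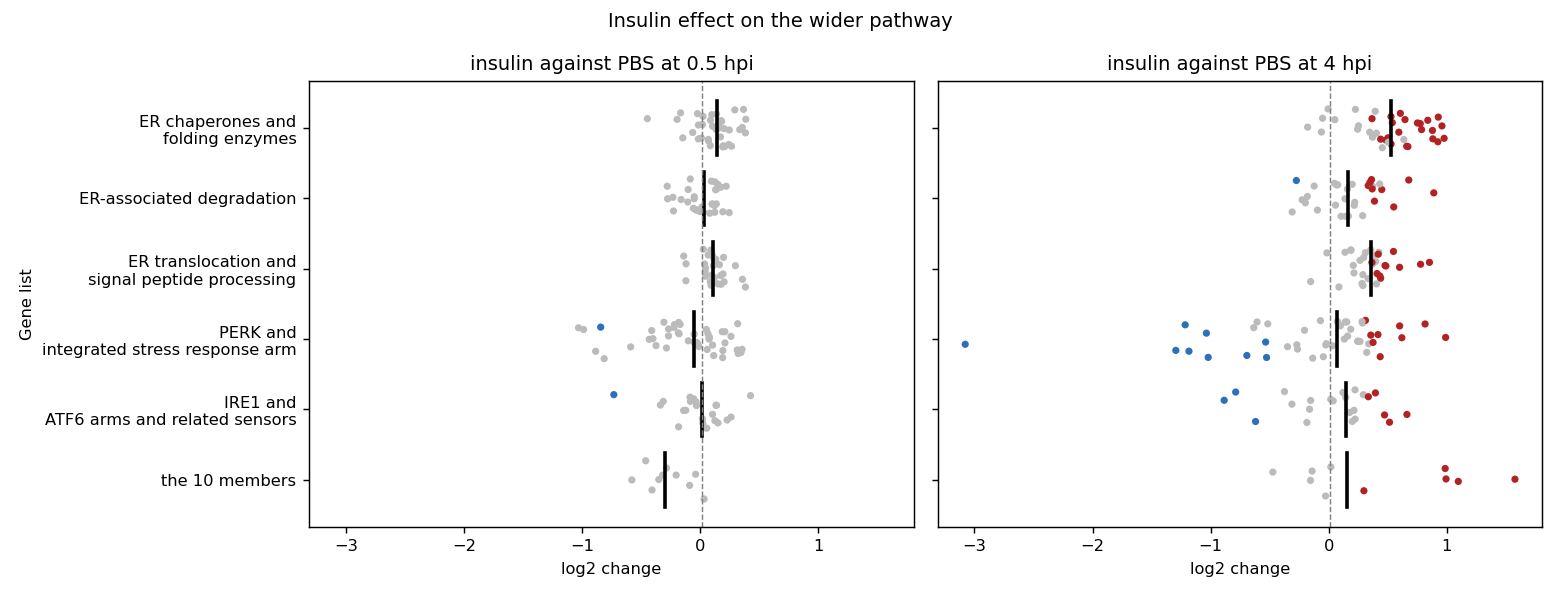
Log2 change of insulin against PBS (horizontal axes) for every tested gene of the 5 lists and for the 10 members, at 0.5 hpi and 4 hpi; red points were called higher, blue points lower, grey points were not called, black bars are list medians and the dashed line is the median of all tested genes. At 4 hpi the chaperone list has its median at 0.53 with 22 genes in red, and the PERK list has 9 genes in each colour.

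At 0.5 hpi 0 of the 168 genes were called higher and 2 lower, trib3 (fell by 0.84, adjusted p = 0.0488) and creb3l3 (fell by 0.73, adjusted p = 0.0412). Of all tested genes 0.166% were called higher and 0.222% lower. At an unadjusted p under 0.05, 15 were higher and 14 lower, DESeq2 called 1 higher and 6 lower, and limma voom called 0. Both calls were lost with the near-identical PBS pair summed, and with library totals. Over the 12 libraries 17 of 169 were called higher and 19 lower, of which 6 and 15 were in the PERK list of 46 genes. Of all tested genes 6.38% were called higher and 6.54% lower in those libraries. Of the chaperone list at 0.5 hpi, 0 of 37 were called, with a median log2 change of 0.14 and 3 genes higher at an unadjusted p under 0.05.

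Markers of the exocrine pancreas were higher beside the chaperone genes at 4 hpi. Of 23 exocrine pancreas markers tested, 10 were called higher in insulin and 0 lower (5 with library totals, 16 over the 12 libraries), with a median log2 change of 0.95. Their summed level was 2154 to 3178 CPM in PBS and 4225 to 6669 CPM in insulin at 4 hpi, without overlap, and 1 of the markers, ERP27, is also in the chaperone list. Of 26 liver markers, 4 were called higher and 2 lower, close to or below the shares of all tested genes (14% higher and 14.6% lower). Their median log2 change was 0.30, and at an unadjusted p under 0.05, 10 were higher and 2 lower. Over the 12 libraries 6 were called higher and 2 lower (median 0.12), where 17.4% of all tested genes were called higher and 17.8% lower. The summed level of the liver markers was 9756 to 10630 CPM in PBS and 9637 to 15323 CPM in insulin. Insulin replicate 1, with the highest hspa5 and hsp90b1, had the highest liver sum and the lowest exocrine sum of its group. It was also the extreme of its group in the other marker sums. Its muscle (111416 CPM) and erythroid (5775 CPM) sums were the highest. Its photoreceptor and lens (6539 CPM) and cartilage and notochord (5260 CPM) sums were the lowest. At 0.5 hpi no exocrine marker was called in the 16 libraries (0 of 23, and 0 at an unadjusted p under 0.05). The sums overlapped, at 1842 to 3635 CPM in PBS and 1264 to 4515 CPM in insulin. Over the 12 libraries 2 of the 23 were called higher and 0 lower at 0.5 hpi, with a median log2 change of 0.71. Of all tested genes 6.38% were called higher and 6.54% lower there, so this count is near the share of all genes. The sums of those libraries were 1842, 1894 and 3635 CPM in PBS and 4012 and 4515 CPM in insulin, without overlap. For the difference between the insulin effects 0 of 23 were called in the 16 or the 12 libraries. The part of these tissues in the change of the members was not tested.

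Some markers of other cell types were called at 4 hpi, where 14% of all tested genes were called higher and 14.6% lower. Over the 12 libraries these shares were 17.4% and 17.8%. Of 30 muscle markers 5 were called higher and 6 lower (7 and 7 over the 12 libraries), and of 39 photoreceptor and lens markers 5 and 2 (14 and 2). Of 23 cartilage and notochord markers 2 and 1 were called (5 and 1 over the 12 libraries), and of 22 erythroid markers 0 and 1 (1 and 6). At an unadjusted p under 0.05, 0 erythroid markers were higher and 2 lower. Their part in the change of the members was not tested either.

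**Figure D4:**
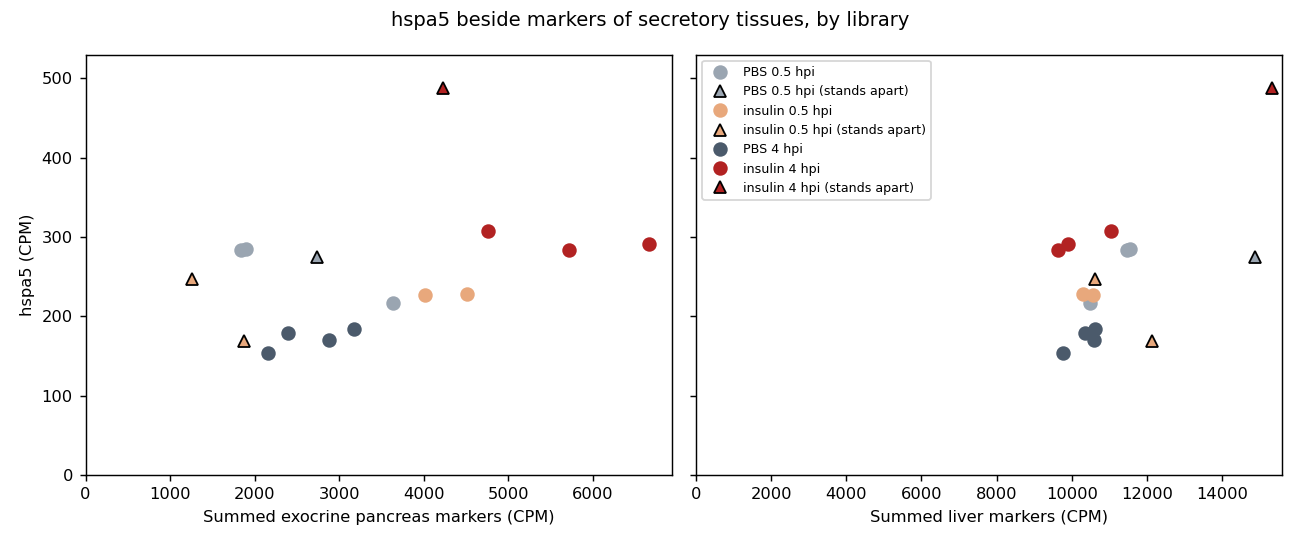
Level of hspa5 in CPM (vertical axis) against the summed level of exocrine pancreas markers (left) and liver markers (right), in CPM, in the 16 libraries; colours give the groups and triangles the 4 libraries that stood apart. The insulin libraries at 4 hpi lay to the right of the PBS libraries at 4 hpi on the exocrine axis, and the highest hspa5 value, 487 CPM, belonged to the library with the highest liver sum. That library also had the highest muscle sum of the 16, which is not drawn.

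Lanes named in the table headers were compared where that could be done. Among the libraries of lane 5 (3 PBS and 2 insulin at 4 hpi, insulin replicate 1 included), the log2 changes at 4 hpi were 1.12 for hspa5, 1.37 for hsp90b1, 0.94 for eif2ak3 and 1.63 for nupr1, each still called, and 0.25 for atf6 (adjusted p = 0.248). Among the 7 libraries whose header named no lane, with 1 PBS and 1 insulin library at 4 hpi, they were 0.89, 0.61, 1.04, 1.49 and 0.39, and none was called. At 0.5 hpi no named lane held both treatments, and the lanes of the libraries with no lane named are not stated. Lane and treatment therefore cannot be told apart at 0.5 hpi. No named lane held both times either, so lane and time cannot be told apart in the comparisons over time or the contrast of effects.

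Across the 16 libraries, the genes outside the 10 whose log2 CPM followed hspa5 most closely were dpp9 (Pearson r = 0.963, Spearman rho = 0.915), tmem214 (0.958 and 0.874) and slc25a12 (0.956 and 0.894). Those closest to chac1 were ankrd9 (Pearson r = 0.926, rho = 0.779), golph3l (0.923 and 0.862) and znf451 (0.914 and 0.903). These values describe 16 points that share libraries, depth and groups, and no test is attached.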

How the data were processed

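The deposited values were the authors' whole-number counts per gene, 1 table for each of 16 libraries, on the Zv9 build per the submitters' processing notes. For the aligner, counting tool, annotation and strand setting: not given in the sources used here. Nothing says that libraries within a group came from separate clutches, so p-values measure the spread between these pools. Genes were filtered with filterByExpr, scaled by TMM and fitted with edgeR 4.0.16 (robust quasi-likelihood, two-sided; R 4.3.3) over 4 groups, with 12 residual degrees of freedom and Benjamini-Hochberg adjustment over 21650 genes; a call is an adjusted p under 0.05. Adjusted p-values are edgeR's unless limma 3.58.1 or DESeq2 1.42.0 is named. Shares of all tested genes are of edgeR's adjusted calls, over 16 or 12 libraries. Counts at an unadjusted p or under other alternatives have no such share beside them. SE is the log2 change over the root of F. The model was also run on simulated counts. These held independent libraries without the split of libraries seen here, so that run does not bear on the split. In a pair of libraries, a gene differed at an adjusted chi-square p under 0.05, among genes with at least 10 counts.

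Members and lists were chosen with earlier results of these data known. Of 376 symbols written for pathway and cell type lists, 40 matched no gene; older symbols were matched through a reference table. Named were all members, the 3 called genes of smallest p per direction, list and treatment comparison, and the 3 genes most like hspa5 or chac1 (mean log2 CPM of at least 1; prior count 2). Alternatives covered scaling, test, filter, libraries, lanes and replicate block. The pathway lists over the 12 libraries or with the near-identical pair summed, and the 12 libraries with that pair summed, were added after seeing the data.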

Additional observations from a re-analysis of the deposited data

Results flagged for a closer look

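Within groups of 4, 4 of 40 combinations of gene and group had a library far from its neighbours. The rule passes about 1 in 20 combinations if the 4 values of a group are independent and normally distributed, which was not checked. These 40 share the same libraries, and the share over all tested genes was not computed, so the count cannot be set against chance. In insulin at 4 hpi, replicate 1 held 487 CPM of hspa5 against 307 CPM in the nearest library, and 458 CPM of hsp90b1 against 233 CPM. In PBS at 0.5 hpi, replicate 4 held 217 CPM of hspa5, with 275 CPM in the nearest library. In PBS at 4 hpi, replicate 1 held 265 CPM of atf4b1, with 338 CPM in the nearest library.

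The insulin effects at 4 and 0.5 hpi differed by the edgeR contrast for 4 genes, where 3.83% of all tested genes were called in that direction. The effect at 4 hpi minus that at 0.5 hpi was 1.28 for hspa5, 1.06 for hsp90b1, 1.39 for eif2ak3 and 1.93 for nupr1 on the log2 scale. In each of these genes all 4 insulin libraries lay above all 4 PBS libraries at 4 hpi. The contrast that picked these genes uses the same values, so this separation adds no support. The share of all tested genes so separated was not computed.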

How the results depend on the processing

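No member's called change reversed under any of the alternatives run. At 0.5 hpi, where 0 members were called, the count was 1 with DESeq2 size factors, 3 with the DESeq2 Wald test, 1 with at least 10 CPM in 4 libraries, 5 without the 4 libraries that stood apart, 2 with that split as a term, and 4 with the near-identical pair summed as well. Leaving out each library in turn gave 0 to 3 at 0.5 hpi (3 without PBS replicate 1, 1 without insulin replicate 2 or without insulin replicate 1 at 4 hpi), 4 to 5 at 4 hpi, 3 to 5 for the difference, 4 to 7 for PBS over time and 2 to 3 for insulin over time. Libraries with no lane named gave 0 calls at 4 hpi, for the difference, for PBS over time and for insulin over time; that set holds 7 libraries. Library totals moved the share of all calls that were positive from 42.9% to 71.6% at 0.5 hpi and from 49% to 38.8% at 4 hpi, from 40% to 22.8% for the difference, and from 58.5% to 75.3% over time in PBS; the median difference of effects over all genes went from 0.01 to -0.10. Replicate numbers did not pair the libraries (correlations of deviations -0.156 to 0.247), and with the replicate block the counts were 0, 5, 4, 6 and 3, adding hsp90b1 over time in PBS. The largest SE at 4 hpi was that of ddit3 (0.24), with a spread within groups of up to 31.5% (coefficient of variation), at counts of 168 to 507 per library.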
